A study of Mus musculus with 6 samples.

Results

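Iron and heme handling was followed here through 10 genes that were picked by name for their roles. The heme breakdown enzymes were Hmox1, Hmox2, Blvra and Blvrb, and the uptake genes were Tfrc and Slc11a2. Ferritin was covered by Fth1 and Ftl1, iron export by Slc40a1 and iron sensing by Ireb2. All 10 were found in the table of 17546 genes. They were chosen with earlier results of the Yoda1 against DMSO comparison known, Blvrb among the genes already seen to differ, so their values in that comparison are given as a description without p-values.

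The material was bulk RNA from group 2 innate lymphoid cells (ILC2s), lymphocytes that make type 2 cytokines without antigen receptors. BALB/c mice had been given IL-33 intranasally, 3 injections of 1 µg, and the ILC2s isolated from their lungs were cultured with 10 ng/mL of IL-2 and 10 ng/mL of IL-7. The 3 Yoda1 libraries, numbered 4 to 6, came from cells exposed for 24 h to 10 µM Yoda1, a small-molecule agonist of the mechanosensitive cation channel Piezo1. The 3 DMSO libraries, numbered 1 to 3, came from cells given the solvent. Both groups therefore shared the strain, the IL-33 injections and the 2 culture cytokines. The comparison asks how transcripts differ with exposure to this agonist, in cells that had already been stimulated in the animal. Whether any difference ran through Piezo1 was not tested.

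Cells take up iron bound to transferrin through the transferrin receptor, move it across the endosomal membrane through DMT1, and store what they do not use inside ferritin shells made of heavy and light chains. Ferroportin is the exporter. Heme is opened by heme oxygenase to iron, carbon monoxide and biliverdin, which biliverdin reductase then reduces to bilirubin. When iron is scarce, iron regulatory proteins bind hairpins called iron-responsive elements, holding back translation where the hairpin lies in a 5′ UTR and protecting the transcript where it lies in a 3′ UTR. Dividing lymphocytes depend on transferrin receptor for iron.

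These hairpins are shown because such elements are where the iron regulatory proteins bind these transcripts. The search used GENCODE M21 transcripts on GRCm38 and the loop letters CAGTGN on the transcript strand, with an unpaired C before the upper stem. It required all 5 pairs of the upper stem and at least 4 of 6 pairs of the lower stem, with G opposite T allowed. Capitals mark the first 5 bases of the loop.
Fth1, 5′ UTR, chr19:9982732-9982760, plus strand: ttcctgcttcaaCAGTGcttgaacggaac
Ftl1, 5′ UTR, chr7:45459779-45459807, minus strand: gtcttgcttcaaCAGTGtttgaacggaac
Slc40a1, 5′ UTR, chr1:45925465-45925493, minus strand: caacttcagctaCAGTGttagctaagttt
Tfrc, 3′ UTR, chr16:32631219-32631247, plus strand: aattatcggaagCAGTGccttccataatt
Tfrc, 3′ UTR, chr16:32631598-32631626, plus strand: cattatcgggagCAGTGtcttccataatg
Tfrc, 3′ UTR, chr16:32631663-32631691, plus strand: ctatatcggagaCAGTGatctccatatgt
Tfrc, 3′ UTR, chr16:32631710-32631738, plus strand: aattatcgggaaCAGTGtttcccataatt

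The search found a 5′ UTR match in 3 members and a 3′ UTR match in 1, against 0.0222% and 0.08% of the 22500 genes with a coding transcript. The hairpins of Fth1 and Ftl1 were alike at 26 of 29 bases, whereas that of Slc40a1 matched the Fth1 hairpin at 13. No hairpin of this form was found in the UTRs of the other 6 members, which says nothing about hairpins of another shape. In the promoters from RefSeq (GRCm38.p6, 250 bases before to 50 after a start), the antioxidant response element core TGACNNNGC was searched on both strands. Among the 7 members with a promoter entry, some with several, it stood only in that of Blvra. Of all 32851 promoters 12.4% had it, a share of promoters and not of genes. Hmox1, Slc11a2 and Slc40a1 had no entry, and elements outside these 300 bases were not searched for.

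Total counts ran from 15355158 to 17322050 in the Yoda1 libraries and from 14214048 to 31627519 in the DMSO libraries. Most markers of ILC2s were abundant: Gata3, the lineage transcription factor, lay between 781 and 1032 CPM with Yoda1 and between 922 and 991 CPM with DMSO, and Il1rl1, the IL-33 receptor, between 556 and 700 CPM and between 562 and 598 CPM. CPM are counts scaled to a common total by TMM. Other markers on the list of 14 differed between the groups. In edgeR, Arg1 was called higher, at 463 ± 15 CPM with Yoda1 and 243 ± 33 CPM with DMSO, and Icos and Il2ra lower, at 463 ± 35 and 729 ± 47 CPM with Yoda1 and 860 ± 11 and 1161 ± 20 CPM with DMSO (SD, n = 3 each; adjusted p = 0.0087, 0.0042 and 0.0071). Thy1 was under 3 CPM in every library. Some values set libraries apart. Scgb1a1, the club cell secretory protein, stood at 301 CPM in DMSO 2 and 295 CPM in DMSO 3, and at 0 to 0.0597 CPM in the 3 Yoda1 libraries and DMSO 1. The 9 epithelial markers in the table summed to 55.2 to 77.7 CPM with Yoda1 and 91.0 to 422 CPM with DMSO. Most of the Yoda1 sum was Epcam, at 48.8 to 71.6 CPM with Yoda1 and 64.5 to 67.4 CPM with DMSO. DMSO 1, low in Scgb1a1, had the epithelial markers Sftpc at 15.2 CPM and Sftpa1 at 3.75 CPM. With Yoda1 these reached at most 0.289 and 0.923 CPM. Scgb3a2, Sftpd, Cdh1 and Krt8 were at 0 in DMSO 1, and its Krt18, at 4.64 CPM, lay within the Yoda1 range.

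Blvrb stood out among the heme breakdown genes. It encodes biliverdin reductase B, an NADPH-dependent flavin reductase that acts on the biliverdin form made in the fetus, and it lies on chromosome 7 at 27447978 to 27466144 (GRCm38). It was at 52.6, 73.3 and 74.6 CPM in Yoda1 4, 5 and 6, against 17.0, 28.8 and 24.6 CPM in DMSO 1, 2 and 3. Every Yoda1 library was above every DMSO library, and the lowest, Yoda1 4, was still well clear of DMSO 2. The means were 66.8 ± 12.4 CPM with Yoda1 and 23.5 ± 6.0 CPM with DMSO (SD, n = 3 each), a log2 change of 1.51 (SE 0.24), or 2.84-fold. These values rest on 308 to 1271 estimated counts per library.

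Blvrb was the 1 member of the 9 tested that was past the threshold of 0.05 in edgeR's quasi-likelihood test, and it was on the higher side. Of all 13325 tested genes 1.49% were called, 0.57% higher and 0.923% lower with Yoda1. Since this comparison entered the choice of members, nothing is read from those shares. The call was not made without Yoda1 5, Yoda1 6, DMSO 1, DMSO 2 or DMSO 3, where the log2 change was 1.44, 1.42, 1.32, 1.69 and 1.53; it was made without Yoda1 4, at 1.65. Nor was it made with the label suffix as a term, at 1.44, or with the libraries of a shared label number summed, at 1.62. With DMSO 1 alone as the control, which leaves out the libraries rich in Scgb1a1, the log2 change was 1.97 and the call was not made; this alternative was added after the data were seen.

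Blvrb is also expressed by red cell precursors and macrophages, so their markers are given beside it. Of 12 erythroid markers 3 were in the table, led by the alpha globin gene Hba-a1, and their sum was 9.94 to 20.2 CPM with Yoda1 and 6.37 to 9.77 CPM with DMSO. Hba-a1 and Hba-a2 were higher in every Yoda1 library, while Epor had a lower mean with Yoda1, at 0.219 against 1.17 CPM, with overlapping groups. The defining erythroid genes Alas2, Slc4a1 and Klf1 were among the 9 listed markers absent from the table. Every gene in the table had a total of at least 10 counts over the libraries. Of 15 macrophage markers 8 were in the table, with a sum of 18.9 to 24.3 CPM with Yoda1 and 10.9 to 13.7 CPM with DMSO, most of it Cd68 and Lyz2. Adgre1, which encodes F4/80, went the other way from this sum and was too low for the test. It was at 0 in all 3 Yoda1 libraries and at 0.0552, 1.67 and 1.27 CPM in DMSO 1, 2 and 3. Both sums were higher with Yoda1 in every library, and their part in the Blvrb values was not tested. In bulk RNA, a change in the number of cells of a type and a change in RNA per cell cannot be told apart.

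**Figure D1:**
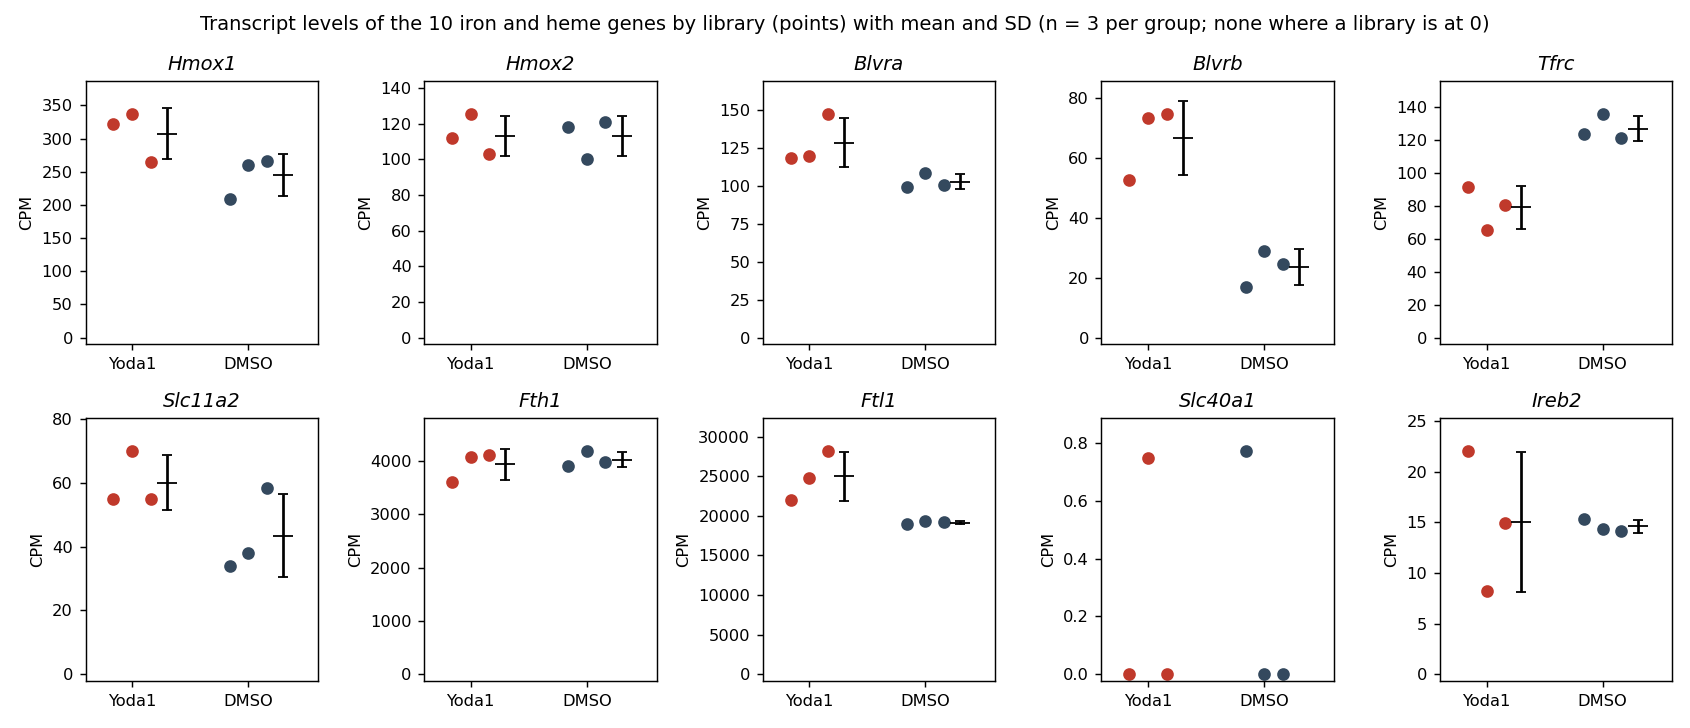
Transcript levels in CPM (vertical axes, each starting near 0) of the 10 genes in each library, with Yoda1 left of DMSO; points are libraries and the bars beside them mean and SD (n = 3 per group), left out for Slc40a1, which was at 0 in 4 libraries. The groups of Blvrb, Blvra, Ftl1 and Tfrc do not overlap.

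The other biliverdin reductase, Blvra, showed a smaller difference. This enzyme makes the main adult bilirubin isomer; the gene is on chromosome 2 at 127070665 to 127097084. It was at 118, 120 and 147 CPM in Yoda1 4, 5 and 6 and at 99.3, 108 and 100.5 CPM in DMSO 1, 2 and 3. The groups did not overlap, but Yoda1 6 lay apart from the other Yoda1 libraries, which were only slightly above DMSO 2. The log2 change was 0.32 (SE 0.13), and it did not pass the threshold.

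Of the heme oxygenases, the inducible Hmox1 had higher values with Yoda1 in most libraries while the constitutive Hmox2 had equal means. Hmox1, on chromosome 8 at 75093621 to 75100589, was at 322, 336 and 264 CPM in Yoda1 4, 5 and 6 and at 209, 260 and 266 CPM in DMSO 1, 2 and 3. Yoda1 6 fell among the DMSO libraries, so the groups overlapped; the log2 change was 0.33 (SE 0.13). Without DMSO 2 and DMSO 3 it was 0.55. Hmox2, on chromosome 16 at 4726361 to 4766742, was at 113 ± 11 CPM in both groups (SD, n = 3 each), with a log2 change of 0.00 (SE 0.13). Neither was past the threshold.

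Ratios taken within a library do not depend on how libraries are scaled. Per exon length, Blvrb over Blvra was 0.391, 0.539 and 0.446 in Yoda1 4, 5 and 6 and 0.151, 0.234 and 0.215 in DMSO 1, 2 and 3, with no overlap. Hmox1 over Blvrb was 7.55 ± 2.07 with Yoda1 and 17.0 ± 2.6 with DMSO (SD, n = 3 each), again with no overlap. The transcript of this reductase was thus nearer to that of the oxygenase with Yoda1. Hmox1 over Hmox2 was 3.44 ± 0.20 with Yoda1 and 2.77 ± 0.52 with DMSO, and DMSO 2, at 3.28, was above Yoda1 6, at 3.25.

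Ferritin light chain was the most abundant transcript of the whole table. Ftl1, on chromosome 7 at 45457944 to 45459884, encodes the chain that helps iron mineralise inside the shell, and it ranked 1 by count in all 6 libraries. It took 2.21%, 2.48% and 2.76% of all counts in Yoda1 4, 5 and 6 and 1.90%, 1.93% and 1.91% in DMSO 1, 2 and 3. In CPM this was 21930, 24797 and 28151 with Yoda1 and 18915, 19294 and 19207 with DMSO. The DMSO libraries lay within a narrow band and all Yoda1 libraries were above it, spread more widely. The log2 change was 0.38 (SE 0.08), 0.29 without Yoda1 6 and 0.39 with DMSO 1 alone as the control. It did not pass the threshold in edgeR over all 6 libraries; edgeR called it higher without Yoda1 4, without Yoda1 6, and when only genes with at least 10 CPM in 3 libraries were tested.

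Fth1, the heavy chain that oxidises iron as it enters, had overlapping groups. The gene is on chromosome 19 at 9980598 to 9985098. It was at 3597, 4080 and 4116 CPM in Yoda1 4, 5 and 6 and at 3905, 4180 and 3982 CPM in DMSO 1, 2 and 3, with DMSO 2 the highest of all. Its log2 change was -0.03 (SE 0.07). Per exon length, Ftl1 over Fth1 was 15.8, 15.7 and 17.7 in the Yoda1 libraries and 12.5, 11.95 and 12.5 in the DMSO libraries. The size of that ratio moves with the length used, at 13.5 ± 0.9 with Yoda1 and 10.1 ± 0.3 with DMSO when the longest annotated transcript stands for the gene (SD, n = 3 each); the gap between groups held with either.

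Ftl1 has near-identical pseudogene copies, and the counting could split reads between them. Ftl1-ps1, Ftl1-ps2 and Ftl2-ps, named after their values were seen, together took 3.71% to 4.06% of the Ftl1 family's counts with Yoda1 and 4.44% to 4.80% with DMSO. How many reads were split was not measured, so the Ftl1 level is uncertain to an unknown degree.

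**Figure D2:**
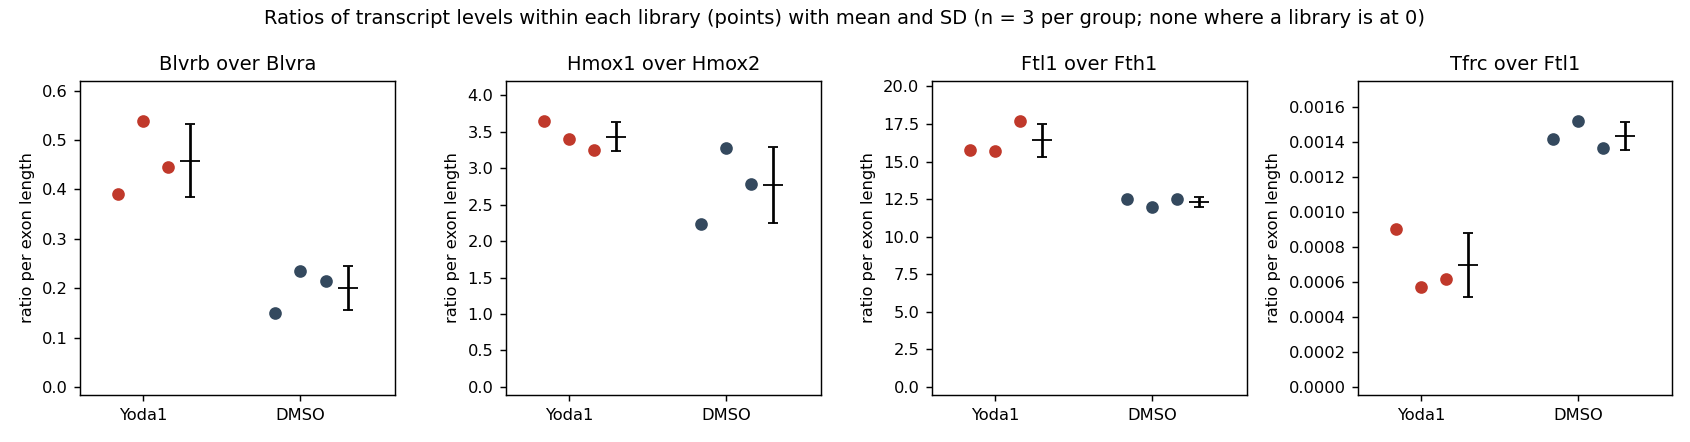
Ratios of transcript levels per exon length within each library (vertical axes, no unit), with Yoda1 left of DMSO; points are libraries, bars mean and SD (n = 3 per group). Blvrb over Blvra and Ftl1 over Fth1 are higher and Tfrc over Ftl1 lower in all Yoda1 libraries, while Hmox1 over Hmox2 overlaps.

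The log2 changes of the uptake genes had opposite signs. Tfrc, the transferrin receptor, on chromosome 16 at 32608920 to 32632794, was at 91.7, 65.2 and 80.3 CPM in Yoda1 4, 5 and 6 and at 124, 136 and 121 CPM in DMSO 1, 2 and 3. All Yoda1 libraries were below all DMSO libraries. The means were 79.1 ± 13.3 CPM with Yoda1 and 127 ± 8 CPM with DMSO (SD, n = 3 each), a log2 change of -0.68 (SE 0.15), or 0.623-fold. With DMSO 1 alone as the control it was -0.65. Tfrc was not past the threshold in edgeR with the main filter, and was called lower by edgeR when only genes with at least 10 CPM in 3 libraries were tested. DESeq2 and limma voom put Ftl1 and Blvrb past it on the higher side and Tfrc on the lower side. DESeq2 called 6.5% of all tested genes, 3.11% higher and 3.39% lower, and limma voom called 2.25%, 0.908% higher and 1.34% lower.

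Of the hairpins printed above, the 4 of Tfrc lie in the 3′ UTR and the one of Ftl1 in the 5′ UTR. Tfrc over Ftl1 per exon length was 0.000906, 0.00057 and 0.000618 in Yoda1 4, 5 and 6 and 0.00142, 0.00152 and 0.00137 in DMSO 1, 2 and 3, with no overlap. That gap follows from the separate values, since Tfrc was lower and Ftl1 higher in every Yoda1 library than in every DMSO library. It adds no further result. Fth1, whose hairpin is nearly that of Ftl1, had overlapping groups. Hairpins in a 5′ UTR act on translation, which RNA levels do not measure. Whether the hairpins had a part in any of these values was not tested.

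Slc11a2 encodes DMT1, the iron transporter of the endosome, and lies on chromosome 15 at 100387898 to 100425072. It was at 55.0, 70.0 and 55.1 CPM in Yoda1 4, 5 and 6 and at 34.0, 38.1 and 58.4 CPM in DMSO 1, 2 and 3. DMSO 3 was as high as the Yoda1 libraries, so the groups overlapped. The log2 change was 0.47 (SE 0.23) and did not pass the threshold; it was 0.73 without DMSO 3, 0.32 without DMSO 1 and 0.81 with DMSO 1 alone as the control. Slc11a2 over Tfrc per exon length was 0.766 ± 0.245 with Yoda1 and 0.337 ± 0.115 with DMSO (SD, n = 3 each), with no overlap. With the label suffix as a term, which leaves DMSO 3 as the only control library beside Yoda1, the log2 change of Slc11a2 was 0.04.

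The exporter was barely detected. Slc40a1, ferroportin, on chromosome 1 at 45908068 to 45926523, had 13 estimated counts in Yoda1 5, 14 in DMSO 1, and 0 in Yoda1 4, Yoda1 6, DMSO 2 and DMSO 3. The upper limit for a library with 0 counts, set at 3 counts over the library total, was 0.0949 CPM in DMSO 2, the deepest library, and 0.211 CPM in DMSO 3, the shallowest. It was too low for the test, and no difference was detectable at this depth.

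Ireb2 encodes IRP2, the iron regulatory protein that is degraded when iron is plentiful. The gene lies on chromosome 9 at 54863789 to 54912530. It was at 22.0, 8.19 and 14.9 CPM in Yoda1 4, 5 and 6 and at 15.3, 14.3 and 14.2 CPM in DMSO 1, 2 and 3. The Yoda1 libraries spread to both sides of a tight DMSO group, and the log2 change was 0.04 (SE 0.35).

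**Figure D3:**
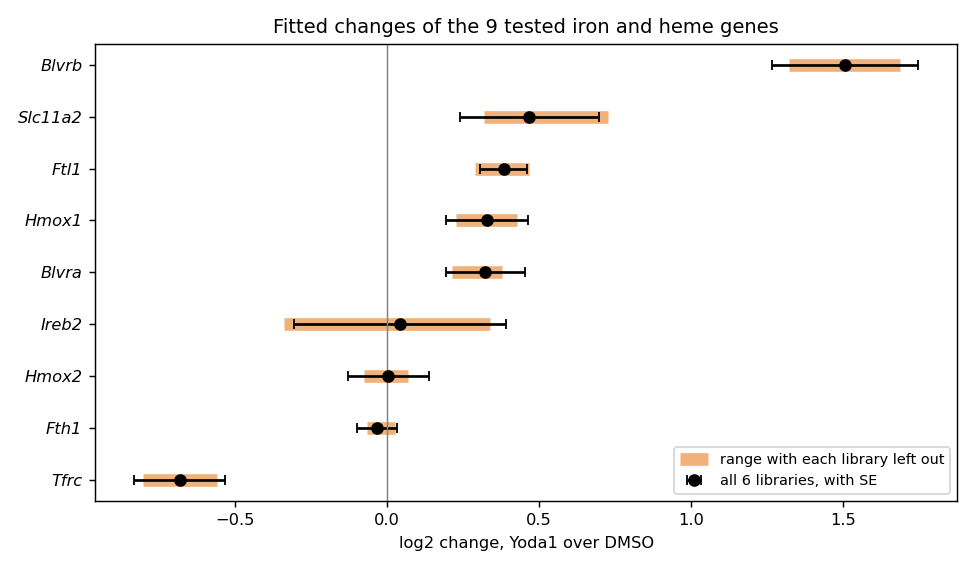
Log2 changes of Yoda1 over DMSO (horizontal axis) for the 9 tested genes, from the fit of all 6 libraries with SE (black) and as the range over fits with each library left out (orange). Blvrb is at 1.51 and Tfrc at -0.68, and the ranges of Ireb2, Hmox2 and Fth1 cross 0.

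Over the 9 tested members the log2 change was positive for 7 and negative for 2, with a median of 0.32, beside 0.01 over all tested genes. Groups did not overlap for 3 members that were higher with Yoda1 and 1 that was lower, where they did not overlap for 22.6% of all tested genes, 10.6% higher and 12% lower. Slc40a1 is not among the 9, and these counts describe genes chosen with the comparison in view.

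Levels of the members were also set in order per exon length, as TPM, counts over exon length scaled to a common total over the tested genes. Ftl1 averaged 52487 ± 3310 TPM with Yoda1 and 41000 ± 538 TPM with DMSO (SD, n = 3 each), followed by Fth1 at 3201 ± 134 and 3328 ± 117 TPM and Hmox1 at 500 ± 87 and 402 ± 53 TPM. In the DMSO libraries the order went on through Hmox2 at 146 TPM, Blvra at 121 TPM, Tfrc at 58.9 TPM, Blvrb at 24.2 TPM, Slc11a2 at 19.7 TPM and Ireb2 at 4.42 TPM. Only Blvrb and Slc11a2 were neighbours whose DMSO libraries overlapped.

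With Yoda1 a pair of places changed. Blvrb, at 67.6 ± 9.7 TPM, stood above Tfrc, at 36.3 ± 7.4 TPM, and their libraries did not overlap, whereas in DMSO libraries Tfrc was above Blvrb, also without overlap. Blvra and Hmox2, at 148 ± 10 and 145 ± 20 TPM, could not be told apart with Yoda1, nor could Tfrc and Slc11a2. Which of Blvra and Hmox2 comes first with DMSO depends on the length used.

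**Figure D4:**
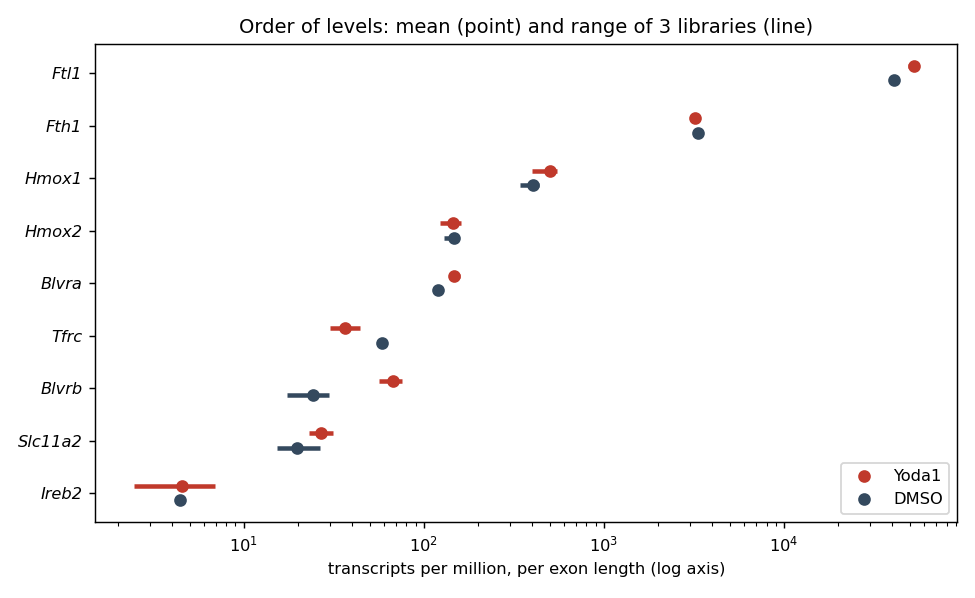
Levels of the 9 tested genes in TPM (horizontal log axis), with Yoda1 drawn above DMSO in each row; points are means and lines the range of 3 libraries. Ftl1 is highest at 52487 and 41000 TPM, and Blvrb and Tfrc change places between the groups.

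The wider pathway was covered by 82 further genes listed by role, of which 69 were in the table and 62 were tested. In edgeR's quasi-likelihood test over all genes, 1 of the 62 fell with Yoda1, none rose and 61 did not pass, beside the 1.49% called over all tested genes. Without adjustment, 3 higher and 5 lower genes of the 62 had p under 0.05, beside 985 higher and 948 lower of all 13325 tested genes, a share near this background. DESeq2 called 1 higher and 3 lower, and limma voom 0 and 1. Over all tested genes DESeq2 called 6.5% and limma voom 2.25%. The median log2 change was 0.07, beside 0.01 over all tested genes.

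The gene that fell was Cpox, coproporphyrinogen oxidase, a late enzyme of heme synthesis in the space between the mitochondrial membranes. It was at 120, 130.1 and 113 CPM in Yoda1 4, 5 and 6 and at 233, 239 and 247 CPM in DMSO 1, 2 and 3. The libraries of each group lay close together and far from the other group. The fold was 0.505 and the log2 change -0.99 with an SE of 0.11, and the adjusted p was 0.0054 in edgeR's quasi-likelihood test. Leaving out DMSO 2 or DMSO 3 ended the call in edgeR, at adjusted p = 0.0515 and 0.0681, with log2 changes of -0.99 and -0.97. It also ended with the libraries of a shared label number summed (edgeR adjusted p = 0.17, log2 change -1.001) and with the label suffix as a term (edgeR adjusted p = 0.14, log2 change -1.03). Over all alternatives the adjusted p ran from 1.84e-16 to 0.62.

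Other steps of heme synthesis went both ways, and none of the remaining 7 genes passed in edgeR with the main filter. Alas1, which makes the first and rate-limiting step outside red cells, was at 127 ± 13 CPM with Yoda1 and 97.2 ± 7.3 CPM with DMSO (SD, n = 3 each; edgeR adjusted p = 0.21). Alad, the next enzyme in order, was at 319 ± 30 CPM with Yoda1 and at 433 ± 24 CPM with DMSO, with adjusted p = 0.077 in the same edgeR test. Groups did not overlap for Alas1 or Alad, and DESeq2 called Alad lower. So did edgeR when only genes with at least 10 CPM in 3 libraries were tested (adjusted p = 0.027). Fech, which inserts the iron, was at 67.7 ± 5.5 CPM with Yoda1 and 57.2 ± 5.5 CPM with DMSO (adjusted p = 0.51 in edgeR), with overlapping groups. Alad was named after its values were seen.

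**Figure D5:**
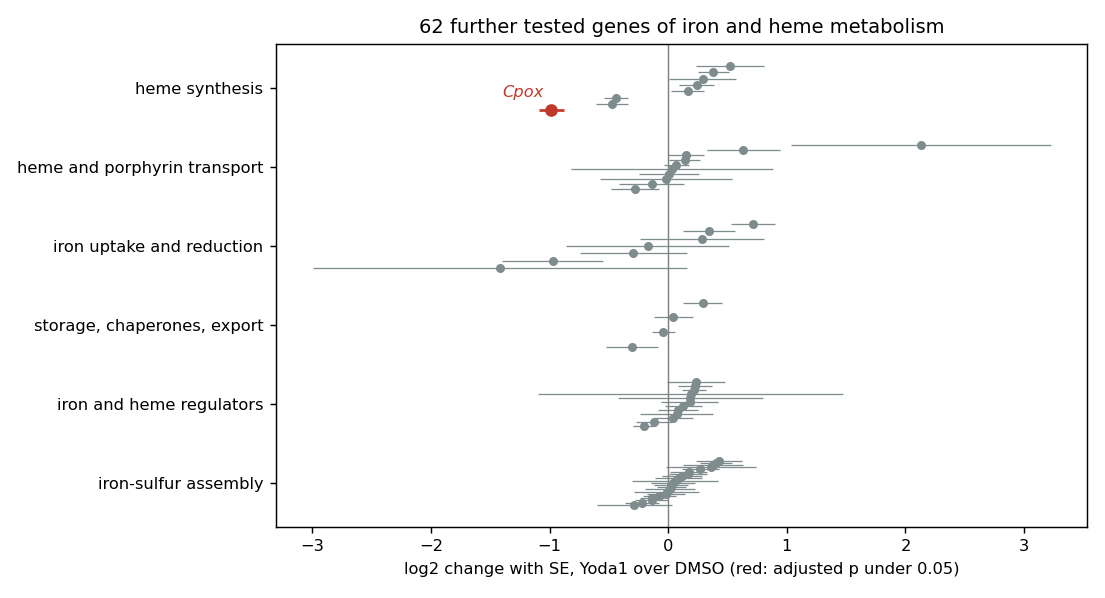
Log2 changes of Yoda1 over DMSO with SE (horizontal axis) for 62 tested genes of iron and heme metabolism, by role. Cpox, in red at -0.99, is the gene past the threshold; the grey genes did not pass.

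None of the 10 tested genes of heme and porphyrin transport passed in edgeR, DESeq2 or limma voom, and in edgeR none had p under 0.05 even without adjustment. Slc48a1, which carries heme out of the lysosome, was at 363 ± 35 CPM with Yoda1 and 346 ± 22 CPM with DMSO (SD, n = 3 each). The heme exporter Flvcr1 was at 19.0 ± 5.1 and 20.9 ± 3.8 CPM. The smallest p was that of Abcb10, a transporter of the inner mitochondrial membrane, at 13.4 ± 3.4 and 8.61 ± 1.93 CPM (edgeR quasi-likelihood test, adjusted p = 0.39).

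Among 7 tested genes of iron uptake and reduction, Mcoln1, an endolysosomal channel that conducts iron and calcium, was at 108.0 ± 16.6 CPM with Yoda1 and 65.7 ± 13.7 CPM with DMSO. Its groups did not overlap and it missed the threshold (log2 change 0.72, SE 0.18, edgeR adjusted p = 0.11). It passed in DESeq2 (adjusted p = 0.0051) and in edgeR when only genes with at least 10 CPM in 3 libraries were tested (adjusted p = 0.0405). The other 6 did not pass in any of the 3 tools.

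Of 4 tested storage and chaperone genes none passed in the 3 tools, nor had one an edgeR p under 0.05 without adjustment. Ncoa4, the receptor that delivers ferritin for autophagy, was at 138 ± 26 CPM with Yoda1 and 113 ± 12 CPM with DMSO. None of 12 regulators passed in the 3 tools. Without adjustment 1 had p under 0.05, with lower values: Hif1a, the hypoxia factor, at 624 ± 38 and 721 ± 45 CPM (edgeR quasi-likelihood test, adjusted p = 0.32).

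The regulators closest to the members had overlapping groups. Aco1, which encodes IRP1, was at 70.7 ± 23.2 CPM with Yoda1 and 62.5 ± 9.5 CPM with DMSO (SD, n = 3 each). Fbxl5, which targets IRP2 for degradation, was at 88.5 ± 12.6 and 86.0 ± 13.8 CPM. Bach1, the heme-binding repressor of Hmox1, was at 9.75 ± 3.52 and 8.62 ± 6.33 CPM. Nfe2l2, which encodes the activator NRF2, was at 81.4 ± 7.3 and 69.6 ± 8.0 CPM. Their edgeR adjusted p ran from 0.53 to 0.95. All 21 genes of iron-sulfur cluster assembly were tested and none passed in the 3 tools; Ciao1, of the cytosolic machinery, had the smallest p, at 94.2 ± 6.3 and 71.2 ± 6.3 CPM (edgeR quasi-likelihood test, adjusted p = 0.20).

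The genes whose profile over the 6 libraries was most like that of Blvrb were P2rx4, Upp1 and Klc4. Likeness was the root mean square difference of log2 CPM after each gene was centred, over 8036 genes averaging 10 CPM or more. It was 0.22, 0.27 and 0.27. P2rx4, an ATP-gated calcium-permeable channel, was at 95.9 ± 5.2 CPM with Yoda1 and 42.2 ± 9.8 CPM with DMSO. Upp1, uridine phosphorylase, was at 163 ± 30 and 62.9 ± 3.5 CPM, and Klc4, a kinesin light chain, at 49.8 ± 1.3 and 21.7 ± 2.2 CPM (SD, n = 3 each). For Hmox1 they were Il18rap, Fam98a and Hmces, at 0.06 each. All were found by their likeness, so no test is given.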

How the data were processed

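RNA-seq of 6 lung ILC2 libraries was used, with groups from the sample titles. The table's own treatment column and the design text name the control PBS where the sample labels say DMSO; the labels were followed. The authors deposited expected counts, estimated reads per gene that need not be whole; they were rounded before testing. The build was mm10 per the submitters' processing notes, and Partek software is named by the deposited table. The aligner, counting method, strand setting and filters: not given in the sources used here.

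edgeR 4.0.16 in R 4.3.3 used TMM factors, filterByExpr (minimum count 10, minimum total 15), the quasi-likelihood functions glmQLFit and glmQLFTest with group alone in the design, Benjamini-Hochberg adjustment over 13325 genes and a threshold of 0.05. The SE is the log2 change over the root of F. The script was tested on simulated data. Alternatives used DESeq2 1.42.0, limma voom (limma 3.58.1), other scaling and filters, label terms and left-out libraries. Positions and lengths, the union of exons, are those of GENCODE M21 (GRCm38, also called mm10).

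The members and gene lists were chosen with earlier results of these data known. Pathway genes were named if past the threshold, if smallest in p for a role where none passed, or from a set of 9 regulators, transporters and enzymes; the profile rule took 3 genes each for Blvrb and Hmox1. Further genes were named with their values in view. The labels do not say whether the libraries of a group had separate mice or cultures behind them; p-values therefore measure the spread between these libraries, which may be technical. DMSO 2 and DMSO 3 share the label number 19, and Yoda1 4 and Yoda1 5 share 21. Pairs within a group differed beyond sampling noise (chi-square per degree of freedom at least 19.3). Separate preparations of the same sample can also differ this way, so the values cannot tell whether libraries with a shared number are separate samples. DMSO 2 and DMSO 3 were at 20.8, beside 19.3 for DMSO 1 and DMSO 3 and 25.9 for DMSO 1 and DMSO 2. Yoda1 4 and Yoda1 5 were at 25.5, the lowest of the Yoda1 pairs. Yoda1 4 and Yoda1 6 were at 51.7, and Yoda1 5 and Yoda1 6 at 37.1. Deeper libraries raise this measure, and it was not adjusted for depth. DMSO 2 and DMSO 3 were also the libraries with Scgb1a1 at 301 and 295 CPM. Each library was counted once, and summed libraries are given as an alternative. The labels name no molecular identifiers, and PCR reads without them are not independent molecules, so limits from counts cover counting error only. Some results are not reported here.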

Additional observations from a re-analysis of the deposited data

How the results depend on the processing

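Over all genes, 76 were called higher and 123 lower. These counts were 414 and 452 in DESeq2, 121 and 179 in limma voom, 158 and 290 with at least 10 CPM in 3 libraries, and 50 higher without a filter. They were 2 and 1 with the label suffix as a term, 1 and 0 with libraries of a shared label number summed, and 0 and 0 with DMSO 1 alone as the control, an alternative added after seeing the data. Leaving out each library gave 4 to 74 higher and 5 to 146 lower. Fewer libraries leave fewer degrees of freedom. Of the members, 1 was called higher and 0 lower. DESeq2, limma voom and the 10 CPM filter called 2 higher and 1 lower; the suffix term, summed libraries and DMSO 1 alone called 0 higher, and leaving out each library gave 0 to 2 higher and 0 lower. Of the pathway genes 0 were called higher and 1 lower, against 1 and 3 in DESeq2 and 1 and 2 with the 10 CPM filter. None were called lower with the suffix term, summed libraries or DMSO 1 alone, and leaving out each library gave 0 to 1 lower. Cpox kept its direction in all 15 alternatives, with log2 changes from -1.04 to -0.94, and its adjusted p ran up to 0.62. Blvrb, Blvra, Hmox1, Slc11a2, Ftl1 and Tfrc kept their sign in all 15; Hmox2, Fth1 and Ireb2 did not. Of the member changes recomputed, 131 moved by less and 4 moved by more than the spread between libraries. With the longest transcript as length, 7 of 9 members kept their place in the DMSO order. No paired analysis was possible because the groups share no replicate number.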
